A study of Mus musculus with 40 samples.

Results

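The myelin sheath of the central nervous system is made by oligodendrocytes, and 8 of its genes are described here across the midbrain and the spinal cord of a mouse model of Parkinson's disease. They were chosen by name as central myelin genes, with no threshold on their values, and all 8 were found among the 40213 gene symbols of the count tables: Mbp, Mobp, Mog, Mag, Cnp, Mal, Opalin and Cldn11. All 8 passed the filter on low counts in each tissue. Poly(A) RNA had been sequenced in 40 libraries, 20 from each tissue, with 4 libraries in each of 5 groups of male C57BL/6N mice aged 8 weeks. Con mice received saline in place of the toxin and saline at the acupoint GB34. The other groups received the dopaminergic neurotoxin MPTP at 20 mg/kg in 4 intraperitoneal injections 2 h apart. MPTP-Veh mice then had saline at GB34, and MPTP-SU mice had the herbal extract SU-Eohyeol (SUEHP) injected there 4 times. MPTP-SU+S mice were also given an antagonist of the cannabinoid receptor CB1 at 3 mg/kg, spelled SR141714A in the sample labels and SR141716A in the study's methods, and MPTP-SU+T mice the PPARγ inhibitor T0070907 at 5 mg/kg. MPTP is used for its toxicity to dopamine neurons, and the RNA came from whole tissue. The labels do not tie a midbrain library to a spinal cord library of the same mouse, nor say that libraries of a group are separate mice, so p-values measure the spread between these libraries, which may be technical.

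Compact myelin is a stack of membrane layers. Mbp encodes myelin basic protein, which holds the cytoplasmic faces of those layers together, and Mobp a smaller basic protein of the same layers. Mal is a lipid-raft protein of myelin membranes, and Cldn11 is the claudin that seals the layers with tight junctions. Mog, a protein of the outermost surface, and Mag, the adhesion molecule that faces the axon, are immunoglobulin-type membrane proteins. Cnp keeps cytoplasmic channels open within the sheath, and Opalin is a membrane glycoprotein of mature central oligodendrocytes. Schwann cells, which myelinate peripheral nerve and spinal roots, also use Mbp, Mag, Mal and Cnp, while Mobp, Mog and Opalin belong to central myelin. The transcription factors SOX10 and MYRF switch on many of these genes.

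The DNA before the members' start sites is given first, as background. Its part in how the members varied between libraries was not tested. RefSeq start sites on GRCm38.p6 were on hand for 7 of the 8 genes. Each was searched over the 250 bases before the start, on both strands, for the SOX-type letters ACAAAG, for the MYRF-type letters CTGGCAC or CTGGTAC and for the E-box letters CAGCTG. Among 32817 RefSeq start sites of the mouse, 16.5% held the SOX-type letters, 5.92% the MYRF-type letters and 13% the E-box letters in a window of that length. The SOX-type letters stood before 4 of the 7 genes (Mobp, Mag, Cnp and Opalin), the MYRF-type letters before 3 (Mog, Mag and Cnp), and the E-box letters before 0. A gene was counted if any of its start sites held the letters, whereas the shares above are over single start sites. The most downstream of the 3 Mag start sites held neither SOX-type nor MYRF-type letters. Mobp held 6 copies of the SOX-type letters, whereas 1.74% of all start sites held 2 or more. A match describes these letters and is not evidence that a factor was bound. The windows with a MYRF-type match and that of Mobp are printed 5′ to 3′ in the direction of transcription, with SOX-type and MYRF-type letters in capitals. They lie at chr9:120149492-120149741 on the plus strand (Mobp), chr17:37023399-37023648 on the minus strand (Mog), chr7:30914923-30915172 on the minus strand (Mag, the most upstream of 3 listed start sites) and chr11:100574689-100574938 on the plus strand (Cnp).
Mobp: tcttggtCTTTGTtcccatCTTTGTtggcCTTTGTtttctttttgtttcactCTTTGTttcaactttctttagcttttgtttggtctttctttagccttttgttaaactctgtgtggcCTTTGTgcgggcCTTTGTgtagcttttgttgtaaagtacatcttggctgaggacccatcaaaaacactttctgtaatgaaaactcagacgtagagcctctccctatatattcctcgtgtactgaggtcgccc
Mog: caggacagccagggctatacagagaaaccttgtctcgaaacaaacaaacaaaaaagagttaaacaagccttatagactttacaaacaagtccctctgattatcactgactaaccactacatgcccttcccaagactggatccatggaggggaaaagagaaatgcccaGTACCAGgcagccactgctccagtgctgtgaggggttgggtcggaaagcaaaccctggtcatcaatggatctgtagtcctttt
Mag: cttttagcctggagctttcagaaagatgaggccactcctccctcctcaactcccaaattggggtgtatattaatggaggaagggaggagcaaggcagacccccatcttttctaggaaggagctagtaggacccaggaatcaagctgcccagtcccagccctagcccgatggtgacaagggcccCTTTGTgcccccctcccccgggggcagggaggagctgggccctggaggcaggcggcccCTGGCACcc
Cnp: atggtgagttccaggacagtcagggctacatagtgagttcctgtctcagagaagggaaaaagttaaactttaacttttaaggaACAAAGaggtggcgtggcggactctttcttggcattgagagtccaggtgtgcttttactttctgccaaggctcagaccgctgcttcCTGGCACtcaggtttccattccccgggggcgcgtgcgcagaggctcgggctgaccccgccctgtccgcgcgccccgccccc

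Library totals ran from 11958200 to 16639823 counts. The regional identity of the samples was clear in marker genes. The dopaminergic gene Slc6a3 held 227 to 2042 counts in the midbrain libraries and 0 to 4 in the spinal cord, and the trunk-level gene Hoxc8 held 0 to 2 and 836 to 1201 counts. One midbrain library, MPTP-Veh replicate 4, stood apart from the rest. It had the lowest total, and mitochondrial transcripts made 1.35% of its counts against 9.92% to 17.5% in the other 19. Of 14818 genes over 1 CPM (counts scaled to a common library total), 19.7% were more than 2-fold above and 22.6% less than 0.5 times the median of those 19 libraries. Many results of comparisons that include it are given with and without it. Midbrain comparisons that do not include it took their estimate of spread from a fit with this library. Values given for them, and for the Con tissue contrast, are from fits that hold it. CPM values were also scaled by the trimmed mean of M values (TMM) over all 40 libraries.

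Myelin genes were abundant in both tissues and more so in the spinal cord. The 8 genes together took 0.609% to 1.04% of the counts in the midbrain libraries (median 0.818%) and 1.19% to 1.52% in the spinal cord (median 1.42%), so that every spinal cord library exceeded every midbrain library. Counting error was small beside this, since the Wilson 95% interval of the lowest midbrain share ran from 0.605% to 0.613%. In bulk tissue, more oligodendrocytes and more RNA per oligodendrocyte cannot be told apart.

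Mbp led the group. It ranged from 2734 to 5985 CPM in the midbrain (median 4614) and from 7531 to 10214 CPM in the spinal cord (median 9190). Mobp ranged from 1712 to 2329 CPM (median 1993) in the midbrain and from 2512 to 2984 CPM (median 2770) in the spinal cord. For both genes all 20 spinal cord libraries lay above all 20 midbrain libraries, a separation seen in 5.85% of the 17426 genes tested. Opalin was the rarest, at 40.2 to 78.8 CPM (median 59.0) in the midbrain and 40.7 to 58.6 CPM (median 50.6) in the spinal cord, and its tissues overlapped. The other 5 genes lay between and overlapped as well, with midbrain and spinal cord medians of 430 and 542 CPM for Cnp, 419 and 494 CPM for Mal, 312 and 441 CPM for Mag, 225 and 271 CPM for Cldn11, and 127 and 152 CPM for Mog. Per kilobase of the longest annotated transcript, the midbrain order was Mbp (median 962 CPM per kb), Mobp (606), Mal (151), Cnp (148), Mag (128), Cldn11 (120), Mog (74.7) and Opalin (21.1). For the spinal cord the ends of this order were the same and Cnp (186 CPM per kb), Mag (181) and Mal (178) followed Mobp, with coefficients of variation of 4.55%, 7.48% and 6.84% over the 20 libraries.

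**Figure D1:**
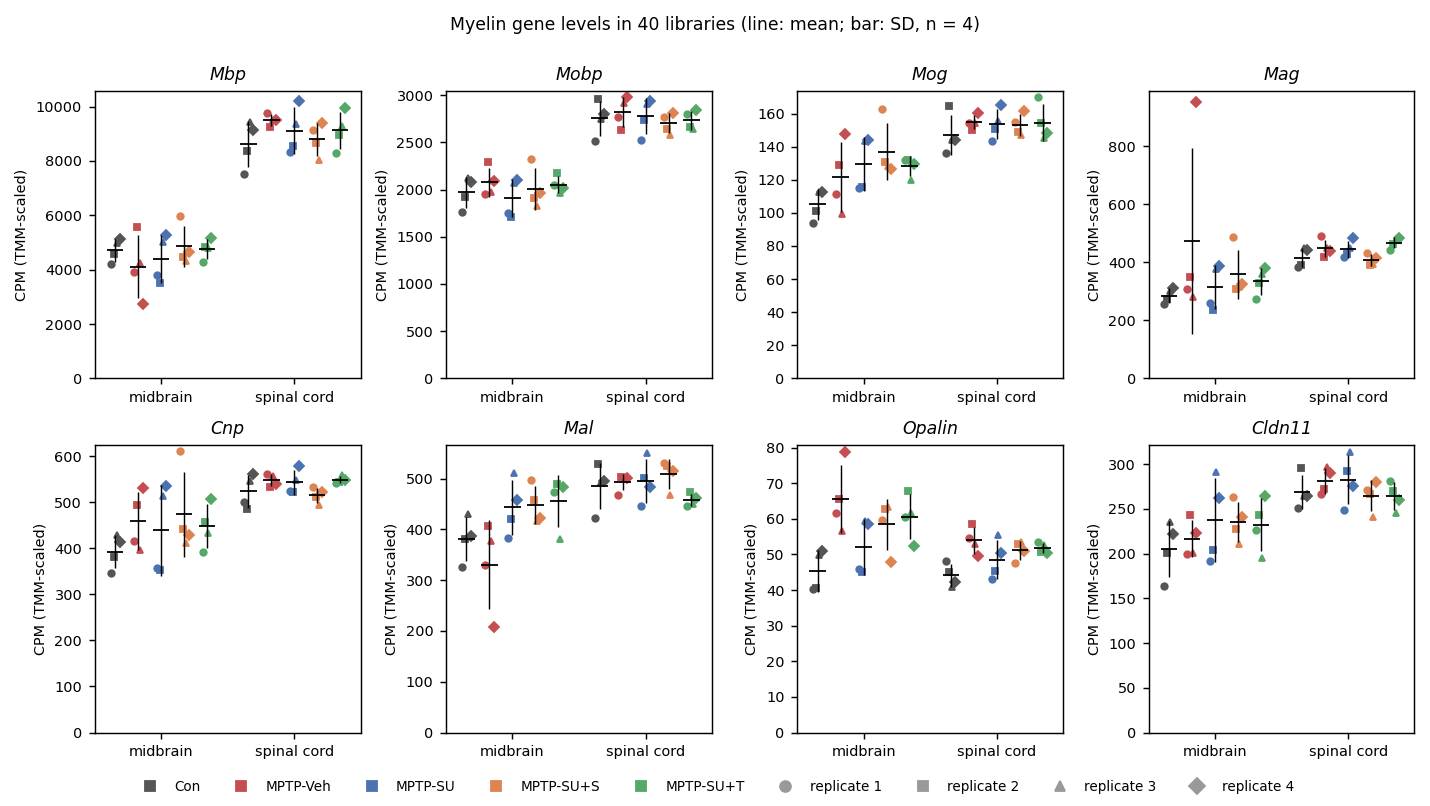
CPM of the 8 myelin genes in each of the 40 libraries, with the y axis from 0, colour for the group, symbol for the replicate number, a line for the mean and a bar for the SD of 4 libraries. Mbp and Mobp separate the tissues without overlap, and 1 red diamond (midbrain MPTP-Veh replicate 4) lies far above the others for Mag and below them for Mbp and Mal.

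The tissue difference was tested over all 5 groups with the edgeR quasi-likelihood test, adjusted by the method of Benjamini and Hochberg over all genes tested. In this comparison 66.2% of genes were called, 31.7% as higher in the spinal cord and 34.5% as lower, so a call by itself is common. Of the 8 myelin genes 7 were higher and 1 was lower in the spinal cord, with a median log2 difference of 0.29 against -0.02 over all genes. Mbp was 1.98-fold higher (log2 0.98 ± 0.062 SE, adjusted p = 6.0e-16) and Mobp 1.38-fold higher (log2 0.46 ± 0.036 SE, adjusted p = 1.6e-13). Mag, Mog, Cnp, Cldn11 and Mal were higher by log2 values of 0.33, 0.30, 0.28, 0.27 and 0.25, with adjusted p-values of 0.0042 or less. Opalin was lower by a log2 value of -0.17 ± 0.049 SE (adjusted p = 0.0030). All 8 calls held without midbrain MPTP-Veh replicate 4, where Mag stood at 0.45 and Opalin at -0.15. Mbp alone exceeded the study's fold threshold of 1.5, which 22% of genes passed together with the adjusted p.

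In the untreated state, with only the 4 Con libraries of each tissue in the contrast, 6 of the 8 genes were called higher in the spinal cord, where 29.8% of all genes were called, 15.9% as higher and 13.9% as lower. Mbp (log2 0.87 ± 0.14 SE), Mog (0.49), Mobp (0.48), Cnp (0.41), Cldn11 (0.39) and Mal (0.35) had adjusted p-values from 7.0e-06 to 0.031. Mal lost its call with scaling by library size alone (log2 0.30, adjusted p = 0.12), without midbrain Con replicate 1 (log2 0.29, adjusted p = 0.095) and without spinal cord Con replicate 2 (log2 0.32, adjusted p = 0.072). Mbp alone was also over 1.5-fold, as were 16.4% of genes. Mag missed the threshold (log2 0.54 ± 0.22 SE, adjusted p = 0.061). It measured 257 to 310 CPM in the Con midbrains and 384 to 448 CPM in the Con spinal cords. Its SE came from the fit of all 40 libraries, which includes midbrain MPTP-Veh replicate 4 with Mag at 952 CPM. The Con contrast is not given without that library. By limma-voom Mag was called (log2 0.55, adjusted p = 0.045). Opalin measured 40.2, 40.5, 50.0 and 51.1 CPM in the Con midbrains and 48.2, 45.2, 40.7 and 42.3 CPM in the Con spinal cords. These values overlapped, with a log2 difference of -0.04 (95% interval -0.27 to 0.18, adjusted p = 0.81), an interval that includes the -0.17 found over all groups.

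**Figure D2:**
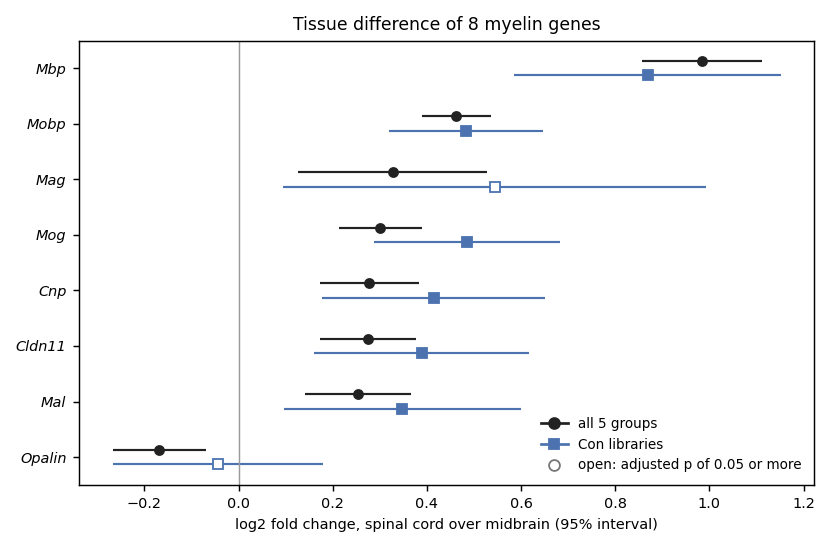
Log2 fold change of each gene in the spinal cord over the midbrain (x axis) with its 95% interval, over all 5 groups (black circles) and in Con libraries (blue squares), where an open symbol marks an adjusted p of 0.05 or more. All genes but Opalin lie to the right of 0, and Mbp lies farthest, at 0.98 and 0.87.

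The make-up of the myelin transcripts also differed between the tissues. Shares among the 8 genes need no scaling between libraries. They sum to a fixed total, so a larger share of Mbp leaves less for the others. How often shares of other genes separate the tissues was not counted. Mbp made up 39.2% to 59.0% of the members' counts in the midbrain (median 56.5%) and 63.3% to 67.5% in the spinal cord (median 65.8%). Opalin made up 0.514% to 1.13% in the midbrain (median 0.673%) and 0.289% to 0.431% in the spinal cord (median 0.363%). Neither gene's shares overlapped between the tissues, with or without MPTP-Veh replicate 4, which held the lowest Mbp share and the highest Opalin share. The other 6 members also made up less in the spinal cord, by medians. The shares of Mobp did not overlap, at 22.4% at the lowest in the midbrain and 22.3% at the highest in the spinal cord. Nor did those of Mag (3.470% and 3.465%), Cnp and Cldn11. Mog overlapped with and without that library, and Mal overlapped only with it.

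The wider oligodendrocyte programme differed in the same contrast. Of 29 other myelin and mature oligodendrocyte genes 22 were called higher in the spinal cord and 0 lower (edgeR, 22 at an unadjusted p below 0.05, median log2 0.50), led by the protease gene Klk6 (log2 1.81), the lipid carrier gene Apod (0.90) and Hapln2, a link protein of nodes of Ranvier (0.79). Of 27 enzymes and regulators of the sterols, fatty acids and glycolipids of myelin 26 were higher and 1 lower (median 0.54), with the desaturase genes Scd2 (0.77) and Scd1 (0.83) and the sterol demethylase gene Cyp51 (0.87) at the lowest p-values. Of 12 lineage transcription factors 6 were higher and 2 lower, among them Myrf at 0.96 and Tcf7l2 at -4.41, the latter a gene that thalamic and midbrain neurons also use. Of 12 genes of the axon-glia junction and node 9 were higher, including the paranodal Nfasc (0.76). Of 12 precursor cell genes 3 were higher and 6 lower (median -0.21), where the proteoglycan gene Cspg5 fell by 1.02 and Vcan, another proteoglycan gene, was 0.86 higher. Of 10 genes of newly formed oligodendrocytes 5 were higher and 1 lower, with Enpp6 at 1.35, and of 8 genes of reactive oligodendrocytes 5 were higher and 0 lower (5 at an unadjusted p below 0.05), with Serpina3n at 1.17. Without MPTP-Veh replicate 4, 71.2% of all genes were called. The myelin list then stood at 23 higher and 0 lower and the lipid list at 26 and 1. Lineage factors stood at 7 and 2, axon-glia genes at 10 and 0 and precursor cell genes at 3 and 5. Newly formed and reactive oligodendrocyte genes stood at 7 and 1 and at 6 and 0.

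Genes of Schwann cells moved with the tissue too. All 9 on the list were called higher in the spinal cord (median log2 4.42), and their summed level was 69.2 to 105 CPM in the midbrain libraries, where 5 of the 9 had a median under 10 counts, and 760 to 2404 CPM in the spinal cord libraries. Their part in the higher Mbp, Mag, Mal and Cnp of the spinal cord was not tested. Of the genes named above as belonging to central myelin, Mobp and Mog were called higher and Opalin was called lower. Across the 20 spinal cord libraries the correlation of each of the 9 Schwann cell genes with the mean standardised level of the 8 members lay between -0.37 and -0.03, a description over libraries that share their groups. Of the other cell types, neurons had 5 of 15 genes higher and 6 lower, astrocytes 7 and 4 of 12, microglia 1 and 5 of 12, and endothelial cells 2 and 4 of 10. Without MPTP-Veh replicate 4 these stood at 6 and 6, 8 and 4, 1 and 7, and 2 and 5.

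MPTP left the myelin genes below the test's threshold in both tissues. In the midbrain, MPTP-Veh against Con called 0 of the 8 (edgeR, 2 at an unadjusted p below 0.05, 0 by limma-voom and 1 by DESeq2), where 0.018% of all genes were called and 23.7% had an unadjusted p below 0.05. The spinal cord comparison also called 0 of 8 (1 at an unadjusted p below 0.05, 0 by limma-voom and 1 by DESeq2), where 0% of all genes were called and 12.8% had an unadjusted p below 0.05. The gene that DESeq2 called was Opalin in each tissue, and DESeq2 called 3.79% of all midbrain genes and 0.36% of those of the spinal cord.

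Opalin was the member with the smallest p in both tissues. In the midbrain its level was 40.2, 40.5, 50.0 and 51.1 CPM in Con and 61.5, 65.5, 56.5 and 78.8 CPM in MPTP-Veh. The groups did not overlap, as was so for 6.37% of genes in that direction. The log2 difference was 0.53 ± 0.14 SE (95% interval 0.25 to 0.82, edgeR adjusted p = 0.13), and without MPTP-Veh replicate 4 it was 0.43 (adjusted p = 0.18). Under 10 other ways of processing, its adjusted p ran from 0.019 to 0.49, and it was also called after a correction for GC content and length, as were 3.34% of genes. In the spinal cord Opalin was at 48.2, 45.2, 40.7 and 42.3 CPM in Con and at 54.7, 58.6, 53.0 and 49.6 CPM in MPTP-Veh. Again the groups did not overlap, which held for 2.26% of genes in that direction. The log2 difference was 0.28 ± 0.073 SE (95% interval 0.13 to 0.43, edgeR adjusted p = 0.19, and 0.037 to 0.39 under the other ways of processing). As a share of the 8 members' counts, Opalin was at 0.514% to 0.587% in Con and 0.687% to 1.13% in MPTP-Veh in the midbrain, which did not overlap, and at 0.289% to 0.409% and 0.343% to 0.424% in the spinal cord, which did. Midbrain shares of Mag (3.47% to 3.58% in Con, 3.66% to 13.7% in MPTP-Veh) did not overlap either. Nor did those of Cnp (4.75% to 4.96% and 5.18% to 7.61%), while those of the other members did. How often shares of other genes separate these groups was not counted. Mitochondrial transcripts made 15.0% to 16.9% of the counts in midbrain Con and 1.35% (replicate 4) to 15.9% in midbrain MPTP-Veh, which overlapped. In the spinal cord they made 12.4% to 14.2% in Con and 14.3% to 16.4% in MPTP-Veh, which did not overlap. Their part in the Opalin values was not tested.

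After SUEHP the mean level of Opalin lay between those of Con and MPTP-Veh in both tissues. In the midbrain MPTP-SU libraries it was 45.8, 45.0, 59.3 and 58.7 CPM, with replicates 1 and 2 in the Con range and 3 and 4 among the lower MPTP-Veh values. The log2 difference from MPTP-Veh was -0.33 ± 0.14 SE (adjusted p = 0.080), and -0.23 (adjusted p = 0.24) without MPTP-Veh replicate 4. After the correction for GC content and length it was -0.43 and called, as were 12.6% of genes. In the spinal cord MPTP-SU libraries it was 43.0, 45.5, 55.4 and 50.5 CPM, with a log2 difference of -0.15 ± 0.072 SE (adjusted p = 0.999). Both comparisons share their MPTP-Veh libraries with the comparison against Con. With the CB1 antagonist the midbrain mean of Opalin was 58.4 ± 7.26 CPM (SD, n = 4) and with the PPARγ inhibitor 60.6 ± 6.30 CPM (SD, n = 4), beside 52.2 ± 7.84 CPM (SD, n = 4) in MPTP-SU. For the spinal cord the libraries ran from 47.5 to 53.4 CPM with the CB1 antagonist, from 50.4 to 53.6 CPM with the PPARγ inhibitor and from 43.0 to 55.4 CPM in MPTP-SU. Neither antagonist comparison passed the test in either tissue (adjusted p from 0.59 to 1). Over all 5 groups at once the adjusted p for Opalin was 0.080 in the midbrain, where 7.1% of genes were called, and 0.17 in the spinal cord, where 0.15% were called. DESeq2 called it in both, along with 19.9% and 4.48% of genes.

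Mag and Mal were at opposite extremes in 1 midbrain library. Mag measured 257, 274, 301 and 310 CPM in Con and 310, 349, 282 and 952 CPM in MPTP-Veh. The log2 difference of 0.74 ± 0.30 SE (adjusted p = 0.16) dropped to 0.14 without the library at 952 CPM. Mal measured 330, 407, 377 and 208 CPM in MPTP-Veh and 383, 421, 511 and 458 CPM in MPTP-SU. Its log2 difference of 0.42 ± 0.16 SE (adjusted p = 0.066) became 0.25 (adjusted p = 0.15) without the library at 208 CPM. The midbrain groups overlapped for Mbp. It was at 4195, 4566, 4985 and 5135 CPM in Con, at 3912, 5561, 4237 and 2734 CPM in MPTP-Veh and at 3792, 3513, 5024 and 5294 CPM in MPTP-SU.

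MPTP-SU against MPTP-Veh called 20.1% of genes in the midbrain and 0 of the 8 members (edgeR, 2 at an unadjusted p below 0.05, as were 39.8% of genes, 0 by limma-voom and 1, Mal, by DESeq2, which called 27.5% of genes). Their log2 differences ran from -0.59 (Mag) to 0.42 (Mal), with a median of 0.01 against 0.00069 over all genes. Without MPTP-Veh replicate 4, 14.6% of genes were called and again 0 of the 8, and the differences ran from -0.23 (Opalin) to 0.25 (Mal), with Mag at 0.0053. Counts were also simulated for this comparison. Of 100 genes changed 1.5-fold and 100 changed 2-fold, 23 and 60 were recovered in the midbrain and 68 and 87 in the spinal cord. Those genes were drawn at random from all genes in the fit, and far fewer were changed than the midbrain comparison called. The rates therefore do not give the power for the 8 members. In the spinal cord the same comparison called 0% of genes and 0 of 8 members (1 at an unadjusted p below 0.05, 0 by limma-voom and 0 by DESeq2), and the members' log2 differences lay between -0.15 and 0.01. MPTP-SU against Con called 1.25% of genes in the midbrain, 0% in the spinal cord and 0 members in either (1 and 0 at an unadjusted p below 0.05, 0 by limma-voom and 0 by DESeq2). Mog was the midbrain member nearest to the threshold there, at 94.1 to 113 CPM in the 4 Con and 115 to 144 CPM in the 4 MPTP-SU libraries (log2 0.30 ± 0.13 SE, adjusted p = 0.24). These Mog groups did not overlap, as did not 8.73% of genes in that direction.

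MPTP-SU+S and MPTP-SU+T were each compared with MPTP-SU to ask what the receptor antagonists changed. In the midbrain 0% of genes were called in either comparison, and the members' log2 differences ran from -0.01 to 0.19 with the CB1 antagonist and from -0.03 to 0.21 with the PPARγ inhibitor. In the spinal cord 0% and 0.036% of genes were called, and the members ran from -0.12 to 0.08 and from -0.11 to 0.10. In all 4 comparisons 0 of 8 members were called (edgeR, 0 at an unadjusted p below 0.05, and 0 by limma-voom and by DESeq2).

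**Figure D3:**
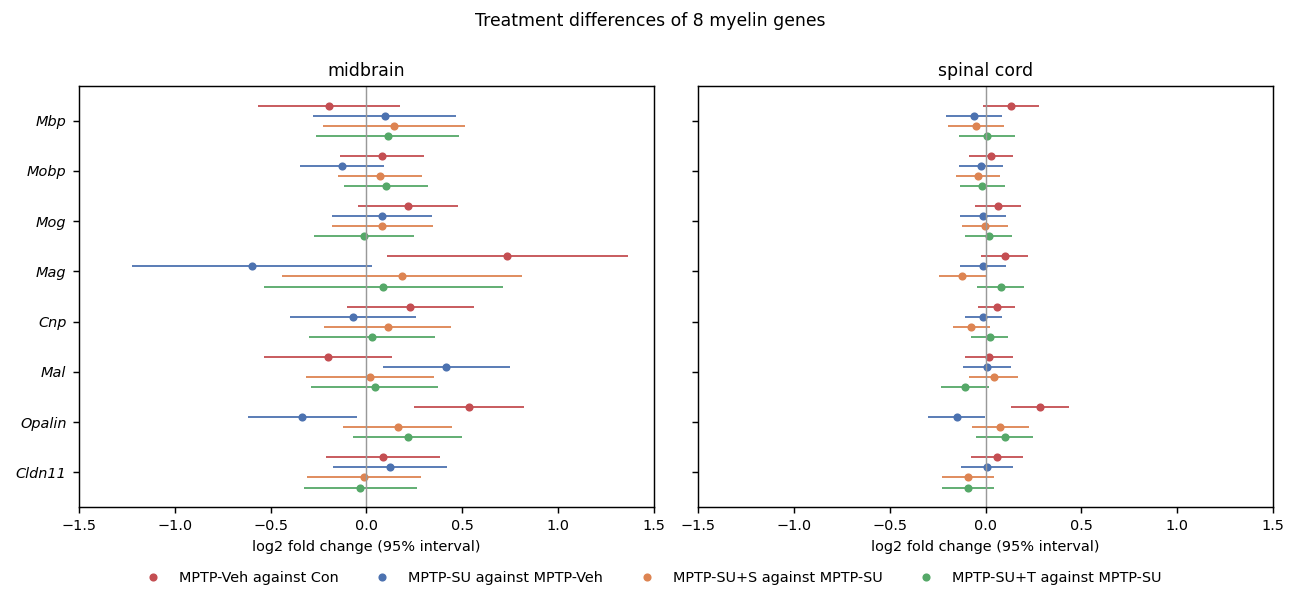
Log2 fold change (x axis) of each gene in 4 treatment comparisons, with 95% intervals, in the midbrain (left) and the spinal cord (right). Intervals are wider in the midbrain, and the intervals of Opalin in MPTP-Veh against Con lie above 0 in both tissues, around 0.53 and 0.28.

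Whether a treatment difference itself differed between the tissues was tested as a tissue-by-group term. For MPTP-Veh against Con 3.12% of genes and 0 of 8 members were called, and for MPTP-SU against MPTP-Veh 16.8% of genes and 0 of 8 members (edgeR, 0 and 1 at an unadjusted p below 0.05, 0 by limma-voom and 0 by DESeq2). Opalin differed between the tissues by -0.24 (spinal cord minus midbrain, log2, 95% interval -0.55 to 0.08) in the first of these, and Mal by -0.42 (95% interval -0.77 to -0.06, adjusted p = 0.088) in the second, which became -0.26 without MPTP-Veh replicate 4.

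The other myelin lists were counted in the same treatment comparisons. In MPTP-Veh against Con none of the 29 other myelin and mature oligodendrocyte genes or the 27 myelin lipid genes was called in either tissue (edgeR). At an unadjusted p below 0.05 there were 10 and 4 in the midbrain and 9 and 11 in the spinal cord. Of all genes, 23.7% and 12.8% had such a p in the 2 tissues. Among spinal cord values all 8 members, 22 of the 29 and 25 of the 27 were above 0 in log2 difference, as were 8249 of all 16682 genes tested, with medians of 0.06, 0.09 and 0.11. Also above 0 were 11 of 12 microglia genes (median 0.16), 10 of 12 precursor cell genes (0.09), 7 of 10 endothelial genes (0.09), 6 of 12 astrocyte genes (0.0040) and 4 of 15 neuronal genes (-0.02). All 9 Schwann cell genes were below 0 in that comparison (median -0.60, 3 at an unadjusted p below 0.05, 0 called by edgeR) and above 0 in MPTP-SU against MPTP-Veh (median 0.55), with a summed level of 760 to 2404 CPM in Con, 885 to 1576 CPM in MPTP-Veh and 1148 to 2305 CPM in MPTP-SU. Their part in the members' values was not tested. In the midbrain, MPTP-SU against MPTP-Veh called 7.38% of all genes higher and 12.8% lower. Of the 27 lipid genes 5 were higher and 1 lower, with the sterol regulator gene Insig1 at 0.38. Of the 29 myelin genes 0 were higher and 5 lower, with Septin4 at -0.51 and Apod at -0.40. Without MPTP-Veh replicate 4 the lipid genes stood at 7 higher and 1 lower and the myelin genes at 2 and 2, with Septin4 at -0.38 and Apod at -0.37. With all libraries neurons had 0 higher and 6 lower of 15, microglia 0 and 4 of 12, and astrocytes 1 and 4 of 12, and without that library 0 and 7, 1 and 0, and 3 and 2.

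The library MPTP-Veh replicate 4 split the myelin genes. Against the median of the other 19 midbrain libraries it held 3.07 times as much Mag, 1.34 times as much Opalin and 1.23 times as much Cnp, but 0.587 times as much Mbp and 0.494 times as much Mal. Mobp (1.06), Mog (1.17) and Cldn11 (0.985) lay near the median. In the remaining midbrain libraries the members' ratios to the other libraries ran from 0.678 to 1.57, and in the spinal cord from 0.803 to 1.16.

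**Figure D4:**
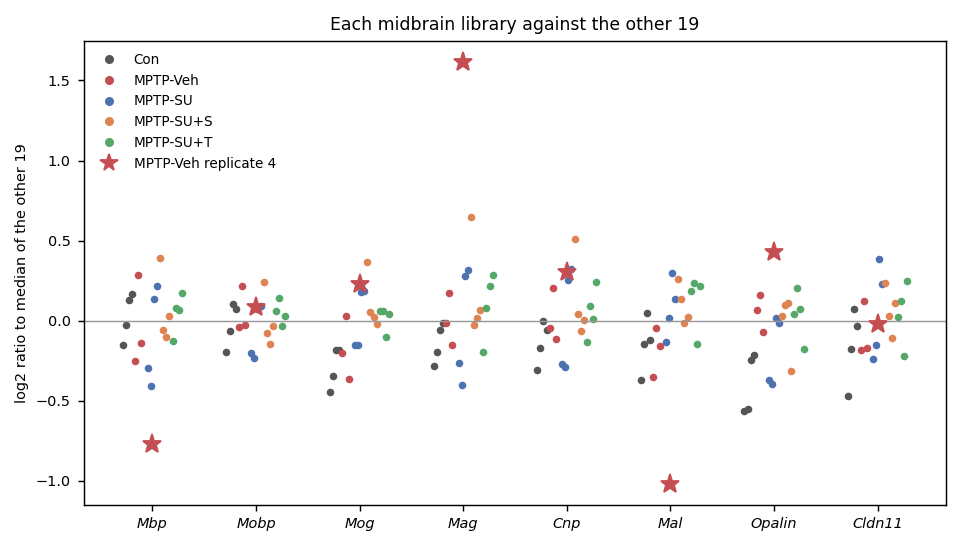
Log2 ratio (y axis) of each of the 20 midbrain libraries to the median of the other 19 for the 8 genes, coloured by group, with a star for MPTP-Veh replicate 4. The star lies far from the other points for Mag, Mbp and Mal and near or within them for the other genes.

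Apart from that sample the members varied together in the midbrain. After group means were subtracted, log2 CPM values of all 28 pairs were positively correlated over the other 19 midbrain libraries, with a median Pearson r of 0.81 (range 0.47 to 0.96, median Spearman rho 0.79). By permutation within groups, 22 pairs by r and 21 by rho had an adjusted p below 0.05 over the 28. How many pairs of other genes would pass was not counted. The closest pair was Mag and Cnp (r = 0.96, permutation p = 9e-05, rho = 0.95, permutation p = 0.00012, r = 0.94 without the 2 libraries farthest from the median). The 6 pairs that did not pass by r were Mag with Mal and 5 of the 7 pairs with Opalin. With all 20 libraries the median r was 0.57 and the range -0.46 to 0.88, the lowest being Mag with Mal. In midbrain MPTP-SU, replicates 1 and 2 had median ratios of 0.840 and 0.835 to the other midbrain libraries over the 8 members, and replicates 3 and 4 had 1.16 and 1.15.

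In the spinal cord the members varied less between libraries. Coefficients of variation over 20 libraries were 4.55% to 9.45%, against 8.27% to 43.0% in the midbrain, or 8.44% to 18.2% without MPTP-Veh replicate 4. The median r over 28 pairs was 0.20 (range -0.19 to 0.88), and 8 pairs by r and 7 by rho had an adjusted p below 0.05. At this threshold the 8 pairs fell into separate sets of genes. Mbp, Mag and Cnp were tied to each other (r = 0.85 for Mbp with Mag, permutation p = 1e-05, the smallest that 100000 permutations can give, rho = 0.86, permutation p = 2e-05). Mobp, Mog, Cldn11 and Mal were tied in 5 of their pairs (r = 0.77 for Mobp with Mog, permutation p = 0.00034, rho = 0.81, permutation p = 0.00033), and no pair across the sets passed. Of the pairs across the sets, Mbp with Mobp came nearest (r = 0.59, permutation adjusted p = 0.074). Within a set, Mog with Mal did not pass (r = 0.47), and Mobp with Mal passed by r but not by rho. Opalin passed with no other member. Mag and Cnp have the highest GC content of the 8 longest transcripts (57.6% and 54.8%, the others 45.8% to 53.3%). Mbp, of the same set, has 51.0%, below Mobp of the other set at 53.3%. The part of GC content in these sets was not tested. A difference in r between the tissues was not tested.

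**Figure D5:**
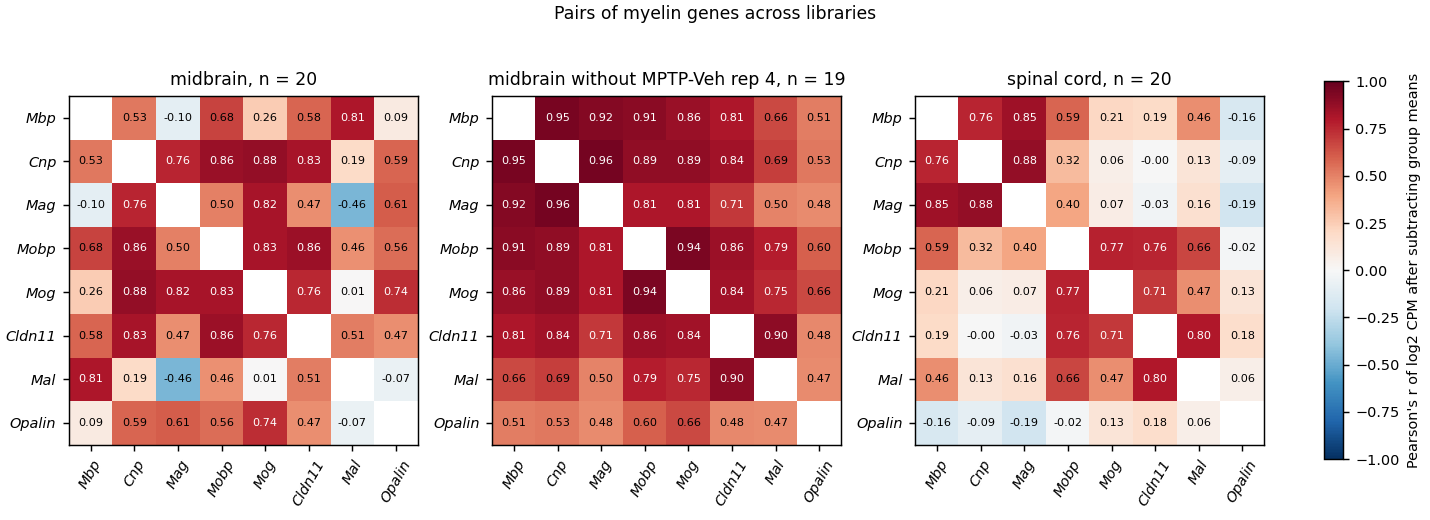
Pearson's r of each pair of myelin genes across libraries after group means were subtracted from log2 CPM, in the midbrain with and without MPTP-Veh replicate 4 and in the spinal cord (red positive, blue negative). The midbrain without that library is red throughout (0.47 to 0.96), and the spinal cord has red blocks for Mbp, Cnp and Mag and for Mobp, Mog, Cldn11 and Mal.

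Outside the 8 genes, those most like their mean standardised level over the 20 midbrain libraries were Prr18 (r = 0.93), Ttyh2 (0.88), Abca2 (0.86), Gjb1 (0.84) and Frmd8 (0.83), out of 13673 genes with a mean log2 CPM of at least 1. Without MPTP-Veh replicate 4 they were Tmem63a (r = 0.94), Prr18 (0.93), Carhsp1 (0.92), Trf (0.91) and Ttyh2 (0.91). In the spinal cord they were Klk6 (r = 0.89), Hoxc6 (0.85), Padi2 (0.81), Sema4d (0.80) and Gfap (0.79), out of 13769. No gene was among the 5 in both tissues, with or without that library. Of the 29 other myelin genes 15 were in the top 500 for the midbrain, with or without that library, and 12 for the spinal cord, and of 15 neuronal genes 1 and 0. These correlations describe libraries that share groups and scaling.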

How the data were processed

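Gene counts of 40 mouse libraries were analysed. Per the study's methods and the processing notes, reads of poly(A)-selected libraries were trimmed with fastp, aligned with STAR and quantified with Salmon on GRCm39, and the notes also name GATK (versions not given in the sources used here). The deposited values were expected counts per gene symbol, given by the authors as whole numbers and not normalized. RNA isolation is described with different kits in the sample labels and in the methods. The 8 members and all gene lists were chosen with earlier results of these data known. Groups were taken from the sample titles.

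Each tissue was fitted in 1 model of 5 groups with edgeR 4.0.16 (filterByExpr, TMM, quasi-likelihood test, R 4.3.3), and tissue contrasts in a model of 10 tissue-by-group cells over 40 libraries. Library totals were 11958200 to 16639823 counts. P-values were adjusted by the method of Benjamini and Hochberg over 16629 midbrain, 16682 spinal cord or 17426 joint genes, and called means an adjusted p below 0.05. The procedure was tested on simulated data. All members were named in every comparison, and other lists by counts, with up to 3 genes of smallest p where any was called. Some list genes that this rule would name are not reported here. Every list without midbrain MPTP-Veh replicate 4 was looked at after the data had been seen. Levels per kb used the longest GENCODE M21 transcript of each symbol, not the study's annotation. Correlations used log2 CPM with a prior count of 2 and 100000 permutations within groups. The genes most alike were the 5 non-members with the highest r. Alternatives were other scalings and filters, DESeq2 1.42.0, limma-voom (limma 3.58.1), a replicate block, each library left out, 8 libraries alone, GC and length correction, and a fold of 1.5. Intervals of shares cover counting error only.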

Additional observations from a re-analysis of the deposited data

Results flagged for a closer look

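A library far from the 3 others of its group was sought by Dixon's ratio for each of the 8 genes in each of the 10 groups, 80 sets of 4 libraries in all. It was found in 6, where chance gives about 1 in 20, or 4 of 80. In the midbrain MPTP-Veh group Mag stood at 952 CPM in replicate 4, the library described above with few mitochondrial counts. In the midbrain MPTP-SU+S group replicate 1 was the highest for Mog (163 CPM), Mag (487 CPM) and Cnp (612 CPM). That library was set against the median of the other 19 midbrain libraries. Above it lay all 8 members, 25 of 29 other myelin and 25 of 27 myelin lipid genes. So did 6 of 15 neuronal and 5 of 12 astrocyte genes. The share of all genes above it was not computed. Mitochondrial transcripts made 10.7% of that library's counts, against 15.7% to 17.5% in the others of its group. Their part in these values was not tested. Mal was lowest in 1 library of midbrain MPTP-SU+T (380 CPM) and in 1 of spinal cord MPTP-Veh (468 CPM). No member's treatment difference was called as differing between the tissues.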

How the results depend on the processing

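The count of members called stayed within 1.5 times its first value in 346 of 362 refits over 16 comparisons. Except in the contrasts of spinal cord against midbrain, that first value was 0, so there this only means that it stayed at 0. In several of these comparisons few or no genes of any kind were called. DESeq2 called 1 member in midbrain MPTP-Veh against Con (Opalin, log2 0.55, adjusted p = 0.019), 1 in MPTP-SU against MPTP-Veh (Mal, 0.41, adjusted p = 0.042) and 1 over the 5 midbrain groups (Opalin), and 1 in spinal cord MPTP-Veh against Con (Opalin, 0.28, adjusted p = 0.037) and 1 over the 5 spinal cord groups. With the GC and length trend removed, 1 was called in each of the first 2 of these (Opalin, 0.61 and -0.43). Requiring a fold of 1.5 left 1 (Mbp) in both tissue comparisons. Leaving out each library in turn gave 0 to 1 members in midbrain MPTP-Veh against Con (1, Opalin, without MPTP-Veh replicate 3), 0 to 2 in MPTP-SU against MPTP-Veh (Mal without MPTP-Veh replicate 2, Mal and Opalin without replicate 3), 0 to 1 in spinal cord MPTP-Veh against Con (Opalin without Con replicate 2), 5 to 6 in the Con tissue contrast and 0 to 1 in each tissue-by-group term (Mag without midbrain MPTP-Veh replicate 3 for MPTP-Veh against Con, Mal without replicate 2 or 3 for MPTP-SU against MPTP-Veh). The cause was not tested.

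The values that changed sign were not called, and most were near 0. In midbrain MPTP-Veh against Con these were Mobp (-0.0048 by library size alone, -0.024 with the GC and length trend removed) and Cldn11 (-0.0028 and -0.032). In MPTP-SU against MPTP-Veh the GC and length correction turned Mobp to 0.052 and Cnp to 0.20. Leaving out a library gave Cldn11 -0.0090 to 0.16 in midbrain MPTP-Veh against Con, and in MPTP-SU against MPTP-Veh Cnp -0.18 to 0.026, Mag -0.77 to 0.0053 (-0.59 with all libraries, 0.0053 without MPTP-Veh replicate 4), Mbp -0.055 to 0.28 and Mog -0.0029 to 0.19. In spinal cord MPTP-Veh against Con it gave Mal -0.039 to 0.063 and Mobp -0.0079 to 0.066, in the Con tissue contrast Opalin -0.084 to 0.035, and in the tissue-by-group term for MPTP-SU against MPTP-Veh Mag -0.036 to 0.77 (0.57 with all libraries).

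Libraries with the same number correlated in their deviations from the group means between -0.11 and 0.29 within a tissue and between -0.19 and 0.34 across tissues, and no comparison had all 4 pairs over 0.1. The numbers were therefore not taken as a pairing. With the replicate block, 0 members were called in every treatment comparison, 8 in the tissue contrast over 5 groups and 7 among Con libraries, where Mag was added (log2 0.54, adjusted p = 0.037).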
